A study of Mus musculus with 4 samples.

Results

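The loci of 10 housekeeping genes were examined for acetylation of histone H4 at lysine 16 (H4K16ac) in undifferentiated mouse ES cells (ESC) and in the neural progenitors (NPC) derived from these. The genes were Actb, Gapdh, Eno1, Hsp90ab1, Hspa8, Eef1a1, Eef2, Rpl38, Npm1 and Ncl. Counted for each gene were the called H4K16ac islands within 30 kb of 1 rounded mm9 position per gene, which gave 40 of 40570 ESC islands and 24 of 48278 NPC islands. Both groups were 46c cells, an ES cell line with a Sox1-GFP reporter, which lights up in neural progenitors. ESC were undifferentiated. NPC had been differentiated for 5 days with NB27 and Neuro2 supplements and sorted by FACS for GFP. Each group had 1 H4K16ac ChIP library made from chromatin digested with micrococcal nuclease (MNase), with the same lot of Millipore antibody, and 1 MNase input library, so cells of a single line stand for each state and differences between them stand without replicates. Beyond distance to the positions, the loci were chosen by called width and density in these same lists, which had been seen before, so the widths, reads and densities below are descriptions, with no test.

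H4K16ac is laid down mainly by the acetyltransferase MOF (Kat8), loosens the packing of nucleosomes in vitro and is found at active promoters and over the bodies of transcribed genes. Housekeeping genes are transcribed in nearly all cell types because their products serve the cytoskeleton, energy metabolism, protein folding, translation and ribosome assembly. The files hold no expression values, so neither the level of these transcripts nor the marker genes of ESC and NPC could be checked here. An island is a run of neighbouring 200 bp windows with more ChIP reads than the background, joined across gaps of up to 600 bp. Density is reads per kb of called island, and RPM is reads per 1000000 island reads of the same list (17935144 reads in ESC and 24386370 in NPC). Reads that fall between islands were not part of the files used here. Absence of an island is therefore not absence of the mark, and ratios count reads of called stretches only.

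RefSeq promoter windows, from 250 bases before to 50 bases after an annotated start, were found for 6 of the 10 genes (not for Actb, Hsp90ab1, Hspa8 or Npm1), in 8 windows on GRCm38.p6. They were not placed on the mm9 islands, since the builds differ. All islands below are on mm9. The 4 shown are of the translation factors Eef1a1 and Eef2, whose positions lay inside both an ESC and an NPC island, and of Ncl and Eno1. At Ncl and Eno1 the ESC island over the position had no NPC overlap, though a neighbouring ESC island at Ncl did. Capitals mark matches, on either strand, to the 5 short motifs spelled out after the sequences.

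Eef1a1 promoter, GRCm38.p6 chr9:78481675-78481974, - strand: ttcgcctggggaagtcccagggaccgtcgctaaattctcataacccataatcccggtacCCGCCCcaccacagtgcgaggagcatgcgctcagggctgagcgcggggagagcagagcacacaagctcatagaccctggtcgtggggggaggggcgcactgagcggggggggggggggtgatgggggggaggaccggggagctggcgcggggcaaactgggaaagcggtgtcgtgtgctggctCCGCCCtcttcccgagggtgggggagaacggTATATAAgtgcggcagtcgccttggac
Eef2 promoter, GRCm38.p6 chr10:81176381-81176680, + strand: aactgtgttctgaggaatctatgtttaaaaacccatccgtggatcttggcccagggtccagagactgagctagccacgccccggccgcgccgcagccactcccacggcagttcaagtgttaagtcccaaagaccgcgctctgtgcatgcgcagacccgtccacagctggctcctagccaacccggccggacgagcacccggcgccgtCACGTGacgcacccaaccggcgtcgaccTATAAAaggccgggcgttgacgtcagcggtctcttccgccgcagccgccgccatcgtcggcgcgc
Ncl promoter, GRCm38.p6 chr1:86359406-86359705, - strand: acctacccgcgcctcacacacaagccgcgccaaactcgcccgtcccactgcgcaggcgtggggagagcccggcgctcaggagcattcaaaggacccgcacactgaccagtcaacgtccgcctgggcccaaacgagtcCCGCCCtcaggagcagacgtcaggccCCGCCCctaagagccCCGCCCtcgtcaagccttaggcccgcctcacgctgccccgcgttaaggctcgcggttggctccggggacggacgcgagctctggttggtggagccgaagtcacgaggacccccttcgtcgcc
Eno1 promoter, GRCm38.p6 chr4:150236974-150237273, + strand: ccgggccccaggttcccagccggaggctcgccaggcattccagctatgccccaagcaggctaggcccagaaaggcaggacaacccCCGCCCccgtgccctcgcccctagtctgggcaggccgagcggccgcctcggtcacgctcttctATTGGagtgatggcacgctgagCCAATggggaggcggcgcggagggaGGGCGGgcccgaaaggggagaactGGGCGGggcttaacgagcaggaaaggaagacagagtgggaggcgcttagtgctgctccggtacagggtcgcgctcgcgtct

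The promoters of these loci differed in the letters searched. GC boxes (GGGCGG) were in windows of 4 of the 6 genes (Ncl, Eno1, Eef1a1 and Rpl38), against 35.7% of all 32851 promoter windows of the same length. The TATA box (TATAAA) was in Eef2 alone, against 13.6% of all windows. The E-box was also in Eef2 alone, with the letters CACGTG, against 7.15%. CCAAT was in Eno1 alone (37.4%), in each of its 3 windows, of which the 1 shown has the most CG dinucleotides. TATATAA, a motif added after the sequences were seen, was in Eef1a1 alone (3.24%), beginning 23 bases after the annotated start. A heat shock element pair, GAANNTTC, had 0 matches in the 8 windows (7.86% of all windows). Cores of the serum response element, searched in 4 spellings, had 0 matches too (0.213%). The motifs did not overlap each other in the windows shown. The count of CG dinucleotides was 34 in Eef2, 33 in Ncl, 25 in the Eno1 window shown, 22 in Eef1a1, 12 in Gapdh and 11 in Rpl38, against a median of 7 over all windows. Each of the 8 windows was above that median, and among those whose position lay in an NPC island the count ran from 12 (Gapdh) to 34 (Eef2).

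Around the 10 genes, NPC had fewer islands, fewer called bases and fewer reads than ESC. ESC islands covered 245 kb (40.9%) of the 10 windows of 60 kb and NPC islands 105 kb (17.6%), a 2.33-fold difference. Reads in the islands that touch the windows came to 37490 in ESC (2090 RPM) and 11861 in NPC (486 RPM), a log2 of NPC over ESC of -2.10 with an exact Clopper-Pearson 95% interval of -2.13 to -2.07. This interval and those that follow cover counting error only. The gene position itself lay inside an ESC island in 9 of 10 genes and inside an NPC island in 3 of 10 (Gapdh, Eef1a1 and Eef2), whereas 7.77% of the centres of all autosomal windows of 60 kb lay in an ESC island and 12.6% in an NPC island. By this count the order of the lists was the reverse of their order over the genome. The positions were rounded to 5 kb, so the count depends on where they fall against short islands. The nearest NPC island was 0.2 kb away at Rpl38, 0.4 kb at Hspa8, 2 kb at Actb and 3 kb at Hsp90ab1.

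**Figure D1:**
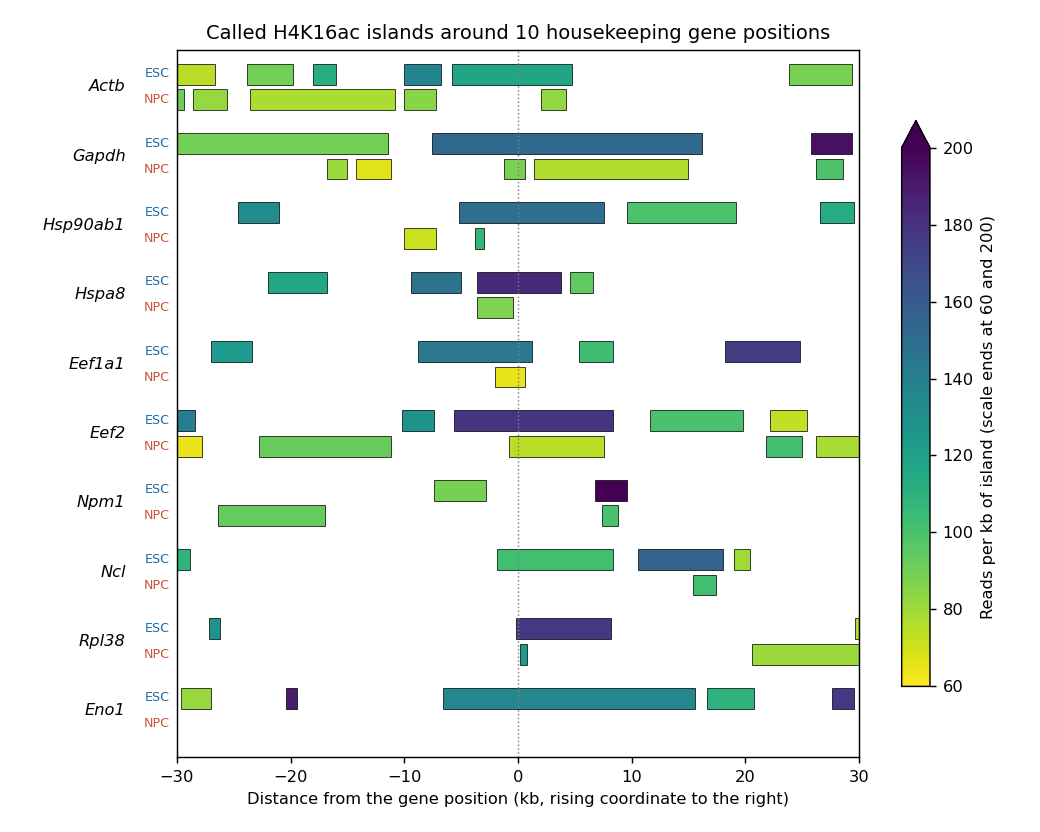
Called H4K16ac islands within 30 kb of each gene position (x axis, kb; dotted line, the position), with ESC above NPC for each gene and colour giving reads per kb. An ESC island lies over 9 of the 10 positions, and the NPC islands inside these are shorter and paler, with 0 NPC islands at Eno1.

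NPC islands covered fewer bases than ESC islands in 8 of 10 windows, against 56.3% of the 20861 autosomal windows of 60 kb with an ESC island. They covered at most 50% of the ESC figure in 6 of 10, against 42% of those windows. Called bases per window had a median of 26 kb in ESC (7.4 to 46 kb) and of 6.8 kb in NPC (0 to 29.2 kb). The exceptions were Npm1 (7.4 kb in ESC and 10.8 kb in NPC) and Rpl38 (9.8 and 10 kb), and at Eef2 the figures were close (29.8 and 29.2 kb). In RPM, NPC was lower in 10 of 10 windows, against 70.5% of all such windows. Under the other 3 scalings tried it was lower in 9 of 10, since they turned Rpl38. The share over all windows was not computed under those scalings. By RPM, NPC was at least 2-fold lower, or had no island, in 7 of 10, against 50.6%. The autosomal windows had less ESC cover than these 10, with 15.2% of bases and a median of 4.4 kb called in ESC. Windows of like ESC cover were not compared, so these shares are not a matched base.

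**Figure D2:**
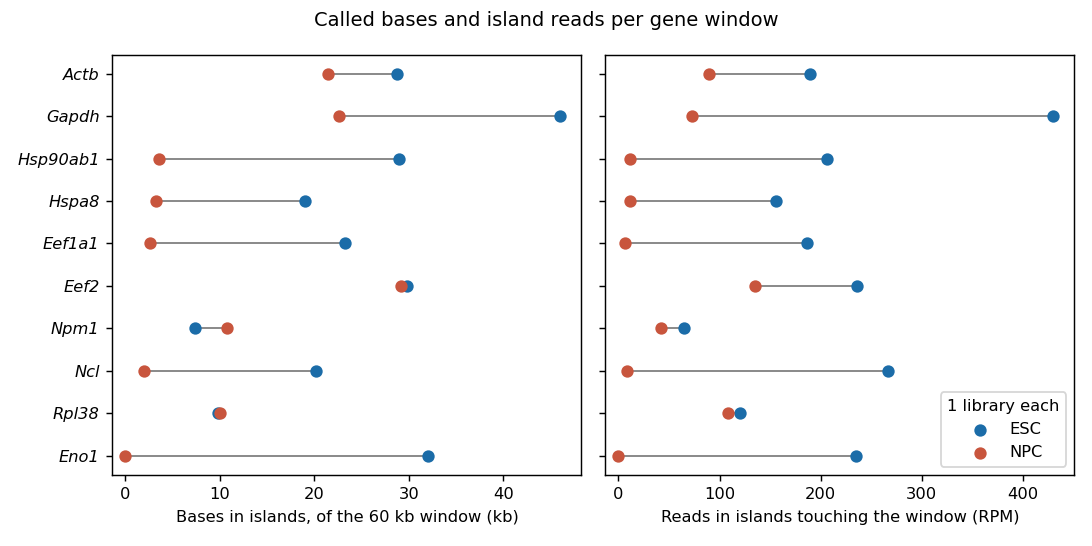
Called bases of the 60 kb window (left, kb) and RPM of the islands that touch it (right) for each gene, with 1 ESC and 1 NPC library joined by a line. The points lie far apart at Gapdh, Eno1, Ncl, Eef1a1, Hspa8 and Hsp90ab1, and close together in called bases at Eef2 and Rpl38; the NPC point at 0 for Eno1 means that no island was called there.

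The ESC islands over the positions (for Npm1, the nearest) had higher medians of width and density than their list, although the Npm1 island, at 89.1 reads per kb, lay below the list's median density. Widths ran from 4.6 to 23.8 kb with a median of 10.4 kb, against 3 kb over all ESC islands, and 8 of the 10 were at least 8 kb wide. A wide island is more likely to hold a given position, so part of this difference in width is given by the choice. Densities ran from 89.1 to 184 reads per kb with a median of 147, against 93.3 over all ESC islands and 81.7 over the 5975 ESC islands of at least 8 kb. NPC islands overlapped 7 of these 10 islands, against 39.8% of all ESC islands and 85% of those of at least 8 kb. In each of the 7 every overlapping NPC island lay wholly inside the ESC island. In 5 of the 7 the NPC islands held at most 50% of the ESC island's bases, against 16.8% of all overlapped ESC islands and 15% of overlapped ones of at least 8 kb. The median share was 26% here, and 90.9% over all overlapped ESC islands. The RPM of the NPC islands was at least 2-fold below that of the ESC island in 7 of 7, against 28.1% of the 14478 regions called in both lists. The 7 were chosen through their ESC island and those regions were not, so a lower NPC value is partly given by the choice.

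**Figure D3:**
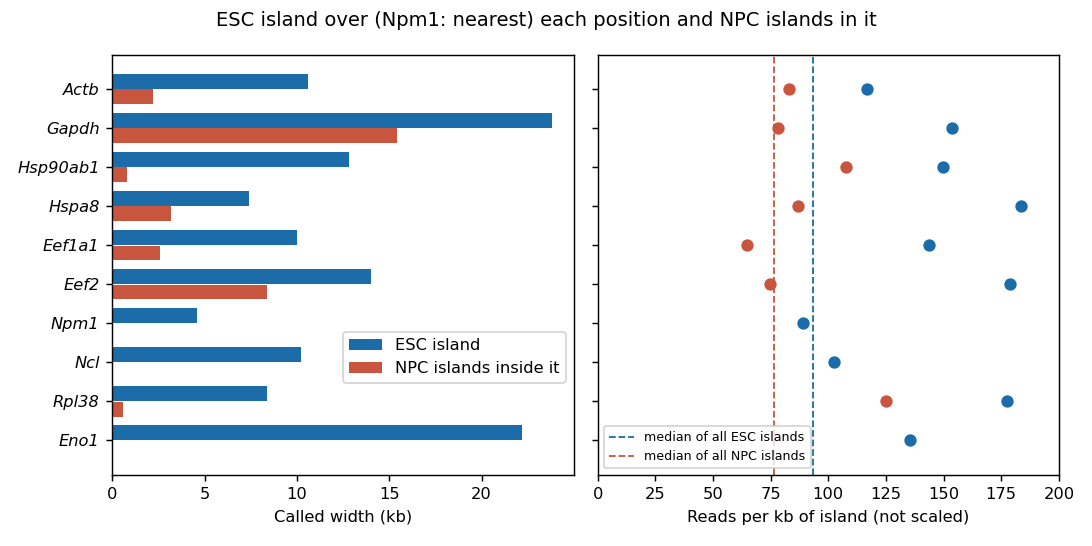
Called width (left, kb) of the ESC island over each position (nearest for Npm1) and of the NPC islands inside it, and their reads per kb (right), with dashed lines at the medians of all islands of each list. The NPC bars are shorter at 7 genes and missing at Npm1, Ncl and Eno1, and the 7 NPC densities lie between 65 and 125 reads per kb.

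Actb encodes beta-actin, a main component of the cytoskeleton. An ESC island at chr5:143659201-143669800 lay over the position with 1239 reads over 10.6 kb (117 reads per kb). The NPC island inside it was 2.2 kb wide with 183 reads (83.2 reads per kb), a log2 RPM of -3.20 (-3.43 to -2.98). At higher coordinates an ESC island of 5.6 kb with 498 reads had no NPC overlap. At lower coordinates both lists had islands: an NPC island of 12.8 kb with 995 reads overlapped ESC islands of 4 kb (360 reads, 95% of bases shared) and 2 kb (224 reads, 100% shared), and the 2 lists shared an island start at 143629801. The whole window therefore differed less than the gene island, with a log2 RPM of -1.08 (-1.15 to -0.997).

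Gapdh and Eno1 encode enzymes of glycolysis, glyceraldehyde-3-phosphate dehydrogenase and enolase 1. The ESC island over Gapdh, chr6:125107401-125131200, held 3653 reads over 23.8 kb (153 reads per kb), more reads than 99.6% of ESC islands. NPC had 2 islands inside it, of 1.8 kb with 159 reads and 13.6 kb with 1044 reads, which held 64.7% of its bases at a log2 RPM of -2.05 (-2.14 to -1.95). Gapdh was thus the member with the largest share of its ESC island called in NPC, at 78.1 reads per kb. A neighbouring ESC island of 37.4 kb with 3351 reads was met by NPC islands with 761 reads over 11.4 kb in all, part of them beyond the window, and 29.9% of its bases were shared, at a log2 RPM of -2.58 (-2.70 to -2.47). Iffo1 and Ncapd2 are the coding genes next to Gapdh in the GRCm38 gene order, and islands were not assigned to genes.

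At Eno1 the ESC list had 5 islands in the window and the NPC list 0. The island over the position, chr4:149608401-149630600, held 3003 ESC reads over 22.2 kb (135 reads per kb), wider than 98.0% of ESC islands. The others held 190 to 463 reads over 1 to 4.2 kb. The nearest NPC island was 32.4 kb away and was 8.8 kb wide with 699 reads. Of autosomal windows with an ESC island, 32.5% had no NPC island. Windows with an ESC island had a median of 4.4 kb called in ESC, however, against 32 kb at Eno1. Of ESC islands of at least 8 kb, 85% had an NPC overlap. From 100 to 300 kb from Eno1, islands covered 30% of bases in ESC and 25.6% in NPC, so that the surroundings were called in both lists.

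Hsp90ab1 and Hspa8 encode the constitutive cytosolic chaperones HSP90 beta and HSC70. The ESC island over Hsp90ab1, chr17:45699801-45712600, held 1918 reads over 12.8 kb (150 reads per kb). The NPC island inside it held 86 reads over 0.8 kb (108 reads per kb), which is 6.25% of the ESC width. Its density was above that of 96.1% of NPC islands, but only 0.889% of them held fewer reads, so the high density rests on a short stretch. The window held another NPC island, of 2.8 kb with 200 reads, 7.2 kb before the position and without ESC overlap. At Hspa8 the ESC island chr9:40606401-40613800 held 1358 reads over 7.4 kb (184 reads per kb), the densest of the islands over a position. Its NPC counterpart began at the same base, 40606401, and held 278 reads over 3.2 kb (86.9 reads per kb), at a log2 RPM of -2.73 (-2.92 to -2.54). The other ESC islands of the window, 3 at each gene, had 0 bases in NPC islands. Window totals were 206 RPM in ESC and 11.7 RPM in NPC at Hsp90ab1, and 156 and 11.4 RPM at Hspa8.

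Eef1a1, Eef2 and Rpl38 serve translation: the first brings aminoacyl-tRNA to the ribosome, the second moves the ribosome along the mRNA, and Rpl38 is a protein of the large ribosomal subunit. At Eef1a1 the ESC island chr9:78321201-78331200 held 1437 reads over 10 kb (144 reads per kb), and the NPC island inside it held 169 reads over 2.6 kb (65 reads per kb), a log2 RPM of -3.53 (-3.77 to -3.30). The NPC island lay over the position and was sparse for its list, above 13.1% of NPC islands in density. The 3 other ESC islands, among them 1 of 6.6 kb with 1157 reads (175 reads per kb), had no NPC counterpart.

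Eef2 kept more of its island. The ESC island chr10:80634401-80648400 held 2503 reads over 14 kb (179 reads per kb) and the NPC island inside it 627 reads over 8.4 kb (74.6 reads per kb), so that 60% of the width was called in NPC. The reads differed by a log2 RPM of -2.44 (-2.57 to -2.31), and the density without scaling by -1.26, the largest density gap among the 7 islands over a position with an NPC overlap. Elsewhere in the Eef2 window NPC had an island of 11.6 kb with 1075 reads and 1 of 6.8 kb with 533 reads where ESC had none. These bring the called bases of the window close to those of ESC although less of the gene island was called.

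Rpl38 showed the same contrast within 1 window. The ESC island chr11:114529801-114538200 held 1492 reads over 8.4 kb (178 reads per kb). The NPC island inside it held 75 reads over 0.6 kb (125 reads per kb) and was denser than 98.9% of NPC islands. Only 0.126% of NPC islands were narrower and only 0.321% held fewer reads. From 20.6 kb to 52.2 kb beyond the position an NPC island of 31.6 kb held 2557 reads, over an ESC island of 7 kb with 535 reads, a log2 RPM of 1.81 (1.68 to 1.95) in the other direction. The window total therefore depended on whether that island was counted whole: its log2 RPM was -0.15 (-0.24 to -0.07) with whole islands and -1.43 (-1.55 to -1.30) with reads clipped to the window. Sdk2 and Ttyh2 are the neighbouring coding genes in the GRCm38 order.

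Npm1 and Ncl encode nucleophosmin and nucleolin, abundant nucleolar proteins of ribosome assembly. The rounded Npm1 position lay outside islands of both lists, 2.8 kb from an ESC island of 4.6 kb with 410 reads (89.1 reads per kb) and no NPC overlap. The dense Npm1 island was the next, chr11:33061801-33064600, with 751 ESC reads over 2.8 kb (268 reads per kb, above 99.9% of ESC islands). It held an NPC island of 1.4 kb with 140 reads (100 reads per kb), a log2 RPM of -2.87 (-3.14 to -2.60). A further NPC island of 9.4 kb with 876 reads, 17 kb or more before the position, had no ESC overlap and made NPC the list with more called bases in this window.

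At Ncl the ESC island over the position, chr1:88238201-88248400, held 1045 reads over 10.2 kb (102 reads per kb) and had 0 bases in NPC islands. The neighbouring ESC island, chr1:88250601-88258000, was denser, with 1150 reads over 7.4 kb (155 reads per kb). It held the 1 NPC island of the window, 2 kb wide with 205 reads (103 reads per kb), a log2 RPM of -2.93 (-3.15 to -2.72). At both nucleolar genes the NPC list thus had an island inside the denser neighbouring ESC island and none in the ESC island nearest the position.

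The same nested arrangement recurred across the windows. Of the 24 NPC islands, 20 overlapped an ESC island and 14 lay wholly inside 1 ESC island, which is 14 of 20 against 45.3% of all NPC islands that overlap an ESC island. The other 6 reached beyond the ESC island, and 4 had no ESC overlap. Widths were not matched in the comparison with 45.3%, and a short island lies more easily inside a wide one. Median widths were 3 kb for the 24 NPC islands, against 4.2 kb in their list. For the 40 ESC islands the median was 4.5 kb, against 3 kb in theirs. Of the 40 ESC islands, 18 had an NPC overlap, against the 39.8% given above, so the share of ESC islands with any overlap was near the background. Of the 17 regions called in both lists in these windows, 13 were at least 2-fold lower in NPC by RPM (28.1% of all regions) and 3 had a log2 above 0. These 3 lay away from the island over the position, with values of 1.81 at Rpl38, 0.33 (0.18 to 0.48) at Actb and 0.04 (-0.21 to 0.28) at Eef2, of which the last has an interval that includes 0. Under the other 3 scalings tried 4 regions were above 0, the fourth being another Actb region (-0.17 by RPM), and 11 were at least 2-fold lower.

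Density and called bases did not always differ in the same direction, since at Npm1 and Rpl38 NPC had more called bases but a lower density. Density was lower in NPC in 9 of the 9 windows with islands in both lists, per 1000000 island reads, against 98.3% of all regions called in both, so this count is no result about these genes. Without scaling it was lower in 9 of 9 too, against 60.6% of those regions. The units differ, since a window pools all its islands. Among the 17 regions called in both lists here, unscaled density was higher in NPC at an Actb, an Eef2 and an Rpl38 region. Their log2 values were 0.24, 0.48 and 0.08, and the rest were lower in NPC. The median log2 of the unscaled density over the 9 windows was -0.68, against -0.07 over all shared regions. In ESC, 72.5% of the 40 islands had at least 100 reads per kb, against 43.4% of all ESC islands. The NPC shares were 20.8% of the 24 islands and 7.17% of all. In NPC, 19 of the 24 islands lay above the list's median of 76.6 reads per kb. Of those 24 NPC islands, 7 were at least 8 kb wide. The 8.4 kb one at Eef2 was wider than 77.5% of all NPC islands, so such widths were common in the list.

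The shortage of NPC islands held at all 10 genes within 10 kb of the positions and was weaker and mixed from 10 to 30 kb. From 0 to 5 kb, islands covered 78% of bases in ESC and 20.6% in NPC, a ratio of 0.264, with fewer called bases in NPC at 10 of 10 genes. From 5 to 10 kb the ratio was 0.278, again with 10 of 10 genes lower. From 10 to 30 kb it was 0.613, with 6 of 10 lower and more called bases in NPC at Actb, Eef2, Npm1 and Rpl38. From 30 to 100 kb the order turned, with 22.8% in ESC and 29.8% in NPC (ratio 1.31, 3 of 10 genes lower), and from 100 to 300 kb it was 18.6% and 32.1% (1.73, 1 of 10 lower, Eno1). The exceptions from 30 to 100 kb were Actb, Hspa8 and Eef1a1. Hspa8 stood in a stretch with few islands, where NPC covered 0% from 30 to 100 kb and 6.2% from 100 to 300 kb.

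**Figure D4:**
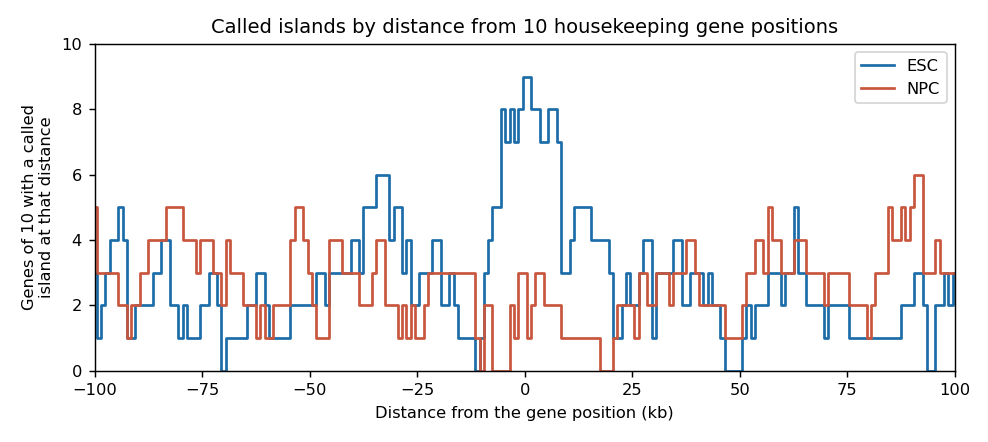
Number of the 10 genes with a called island at each distance from the position (x axis, kb, in steps of 1 kb) in ESC and NPC. The ESC line reaches 9 at the position, where the NPC line is at 3. Farther out the lines cross repeatedly, at some distances within 30 kb too.

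A dip of NPC around ESC islands is partly given by the choice of places where ESC has an island, so the same bands were measured around the midpoints of all autosomal ESC islands. Around the 5950 of at least 8 kb, the ratio of called bases, NPC over ESC, was 0.712 from 0 to 5 kb, 1.02 from 5 to 10 kb, 1.20 from 10 to 30 kb, 1.37 from 30 to 100 kb and 1.54 from 100 to 300 kb. Around all 39508 it was 0.595, 1.14, 1.25, 1.38 and 1.53. The values at the 10 genes were lower than both sets in the 3 bands up to 30 kb and near them from 30 kb outward. These comparisons carry no test, the gene positions are not island midpoints, and the bands were set with earlier results of these data known.

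**Figure D5:**
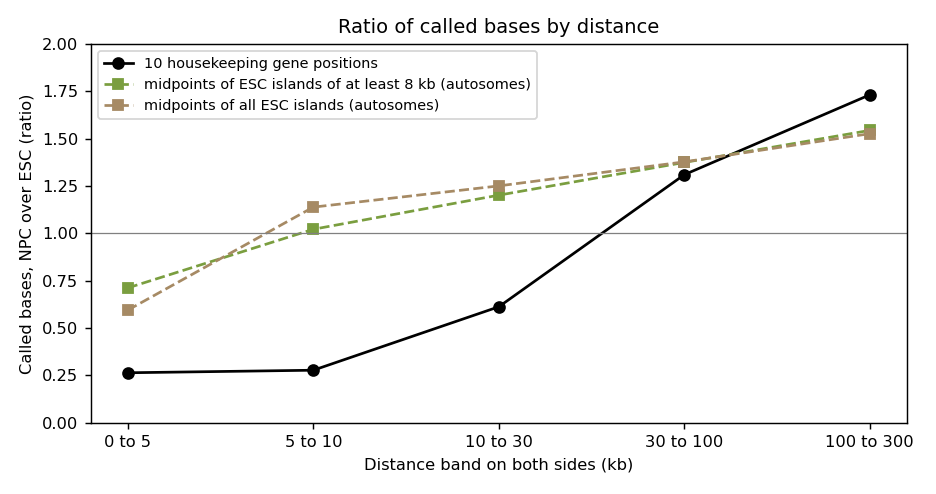
Called bases in NPC over ESC (y axis, ratio, from 0) in 5 distance bands (x axis, kb) around the 10 gene positions and around the midpoints of autosomal ESC islands. The gene line lies below the others up to 30 kb, at 0.264, 0.278 and 0.613, and reaches 1.73 in the last band.

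At the border of the rule, the outermost islands counted were an Rpl38 ESC island that began 29.6 kb from the position (7 kb, 535 reads) and an Actb NPC island that ended 29.4 kb from it (5.8 kb, 530 reads). Just outside were an Eef1a1 ESC island that ended 30 kb from the position (4.6 kb, 417 reads) and, in NPC, an Ncl island 30.8 kb away (15.2 kb, 1102 reads).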

How the data were processed

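H4K16ac was measured by ChIP-seq in 1 ESC and 1 NPC library. Islands were made with SICER 1.1 on mm9, and Bowtie 0.12.7, bedtools 2.10.1, SAMtools 0.1.7 and CASAVA 1.8.2 are also named, per the submitters' processing notes. The deposited lists, 1 per ChIP library, give each island's position and a whole number, read as the count of ChIP reads in the island, not scaled by the authors. Duplicate removal and the use of the input in the calls are not given in the sources used here. Library depth beyond the island reads is unknown.

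Ends were read as the last base, starts were moved by 1, and an island counted from 1 base in the window. Gene positions came from a list rounded to 5 kb, without an mm9 annotation, so exon, intron and UTR were not determined; all 10 symbols lie on the same chromosome in the RefSeq table of GRCm38. The positions, bands and comparisons were chosen with earlier results of these data known. The rule named all 10 genes. With 1 library per group no test across samples and no leave-out was possible. Ratios carry exact Clopper-Pearson 95% intervals; without molecular identifiers, reads may repeat a molecule. The overlap and ratio code was tested on simulated data. Python 3.11.15, numpy 2.4.6, pandas 2.3.3, scipy 1.17.1 and matplotlib 3.10.9 were used.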

Additional observations from a re-analysis of the deposited data

How the results depend on the processing

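No paired analysis was possible because each group has 1 library, and no library could be left out. Of 126 values recomputed, 55 log2 values of single genes and 11 values over all 10 genes moved, while 26 and 30 stayed the same. Moved means outside the interval of the reported log2 or, for counts, more than 1.5 times apart. The sign changed in 4 values, all in window totals of single genes, and counts cannot change sign. Npm1 went to 0.61 with 100 kb each side. Rpl38 went to 0.26 when scaled by reads in regions called in both lists, 0.34 when scaled by the median ratio and 0.29 in raw island reads; the first 2 scalings move every log2 value up by 0.41 and 0.49, and raw reads by 0.44. The log2 RPM over all 10 windows kept its sign in every setting run. It was -3.21 with 10 kb each side, -0.99 with 100 kb, -2.15 with gaps of up to 2000 bp merged, -2.43 with only islands of at least the median read count of their list, -2.14 with islands of at least 1000 bp and -2.33 with reads clipped to the window. It was -1.69 scaled by shared regions, -1.61 by the median ratio and -1.66 in raw reads. With the median read count required, windows with lower density in NPC numbered 5, because 4 more genes (Hsp90ab1, Hspa8, Eef1a1 and Ncl) lost all their NPC islands, and positions inside an NPC island numbered 1. Genes with fewer called bases in NPC, 8 of 10 as reported, numbered 6 with 100 kb each side and 10 with 10 kb. They numbered 7 to 9 in the other settings run. Positions inside an ESC island numbered 9 in every setting run. The unknown depth of the libraries limits the reading of stretches without an island.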
